A study of Homo sapiens with 9 samples.

Results

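The kallikrein-related peptidases are secreted serine proteases whose genes lie side by side on the long arm of chromosome 19. They are made as inactive precursors, activate one another in cascades, and are known mainly from stratified and glandular epithelia, where they shed surface cells, act on protease-activated receptors and process growth factors and matrix proteins. Several of them serve as tumour markers. The 10 genes described here are KLK5, KLK6, KLK7, KLK8, KLK10, KLK11, KLK12, KLK13, KLK14 and KLK15, out of 31033 gene names on the array. All probes carrying one of these gene names were taken, which gave 13 probes. KLK10, KLK13 and KLK15 had 2 probes each and the other 7 genes 1 probe each. The cluster was chosen by a measured pattern of these arrays, the log2 differences of the KLK15 probes upon Lamin B2 depletion, which went both ways. Member values in Lamin B2 Kd cells are therefore given as a description with no p, and nothing is read from counts of member probes in comparisons that hold those cells.

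The RNA came from DLD1, a human colorectal cancer cell line with a stable, near-diploid karyotype. Control cells (3 arrays) were untreated. Lamin A/C Kd cells (3 arrays) had received siRNA against LMNA, and Lamin B2 Kd cells (3 arrays) siRNA against LMNB2, each at 100 nM for 48 h. The study describes the 3 arrays of a group as separate biological replicates. No array of the series came from cells given a control siRNA. Depletion of a lamin and siRNA transfection itself therefore cannot be told apart in either comparison. Each array was read in 1 colour and gave an intensity per spot, and no array held a saturated spot. Of the non-control spots, 65.6% to 74.1% were well above background on an array. The number of arrays limits the precision of each value. Signals below are log2 intensities relative to the median of the array, where 0 is the median spot. As a result, a level is compared only between arrays for the same probe. Brightness across probes was used to choose which list genes and probes to name. Lamin B2 Kd replicate 3 was the only array on a second slide and its values carried 3 significant digits, so the Lamin B2 Kd differences from control of single member probes that passed detection are given with and without it.

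The targeted transcripts fell in the arrays that carried their labels. LMNA, which encodes Lamin A and Lamin C, read 8.79, 8.79 and 8.91 in control cells and 4.84, 5.14 and 5.03 in Lamin A/C Kd cells. The difference was -3.83 ± 0.22 (log2, SE; limma adjusted p = 0.000241, n = 3 and 3). LMNB2 read 5.44, 5.51 and 5.74 in control cells and 3.1, 3.48 and 3.15 in Lamin B2 Kd cells, a difference of -2.32 ± 0.14 (limma adjusted p = 0.000576). LMNA in Lamin B2 Kd cells read 8.83, 8.83 and 7.97, the lowest being the array of the second slide. LMNB2 in Lamin A/C Kd cells read 5.11, 5.31 and 5.18, below all 3 control arrays. That difference from control was -0.36 ± 0.14 (limma adjusted p = 0.156). LMNB1, which encodes Lamin B1 and was not targeted, differed from control by -0.99 ± 0.40 upon Lamin A/C Kd (limma adjusted p = 0.171) and by -0.64 ± 0.40 upon Lamin B2 Kd (limma adjusted p = 0.350). The latter ran from -1.12 without Lamin B2 Kd replicate 2, where it met the criteria for a call given below, to -0.19 without replicate 3. The former met them when the second array of the control group (-1.08) or of its own group (-1.10) was left out.

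The labelled cell type was checked against markers. Of 12 colon epithelium markers on the array, 10 were well above background on all 9 arrays. KRT18, KRT19, KRT8 (keratins of simple epithelium) and TACSTD1 (the epithelial adhesion molecule EpCAM) averaged 11.65, 10.82, 10.57 and 9.90 in control cells. Upon Lamin B2 Kd 1 of these 12 genes met the criteria for a call given below, VIL1 (villin, of the microvillus core), which differed from control by -1.06 ± 0.21 (limma adjusted p = 0.0349). It no longer did without Lamin B2 Kd replicate 3 (-0.87) or without Control replicate 3 (-0.93). Its second probe was not called (-0.66 ± 0.28). Of 8 markers of stratified epithelium, the tissue in which kallikreins are best known, 3 were well above background on all arrays (KRT10, KRT14 and LOR), and KRT1 and DSG3 on none. Of 6 fibroblast markers none was above background on all arrays and LUM was on no array. PDGFRB, a growth factor receptor of that list, averaged -1.54 in control and -0.02 in Lamin A/C Kd cells (difference 1.52 ± 0.27, given with no p). It was well above background on 2 of the 3 control arrays and entered the test through Lamin A/C Kd, in which it was high, while COL1A1 and COL3A1 were above background on 2 and 1 arrays. DCN (decorin), the other gene of the list that was tested, differed by -0.18 ± 0.39 (limma adjusted p = 0.854). Of 6 immune markers 4 were detected on all arrays and of 4 endothelial markers 2, with none called. PTPRC, the general leukocyte marker, was detected on 2 arrays. The part of any such cell type in the results below was not tested.

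In DLD1 cells 7 of the 13 kallikrein probes were well above background on all 9 arrays, 5 on some arrays and 1 on none. The 7 probes represented 6 genes, KLK5, KLK6, KLK7, KLK10, KLK11 and KLK14. One KLK13 probe (P416645) was above background on no array and the other (P333697) on 2 arrays, both of Lamin B2 Kd cells, so KLK13 entered no test. Between replicate control arrays the member probes had a median SD of 0.22 (log2), against 0.11 over all probes. In Lamin B2 Kd cells the corresponding values were 0.49 and 0.26, and in Lamin A/C Kd cells both were 0.14.

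**Figure D1:**
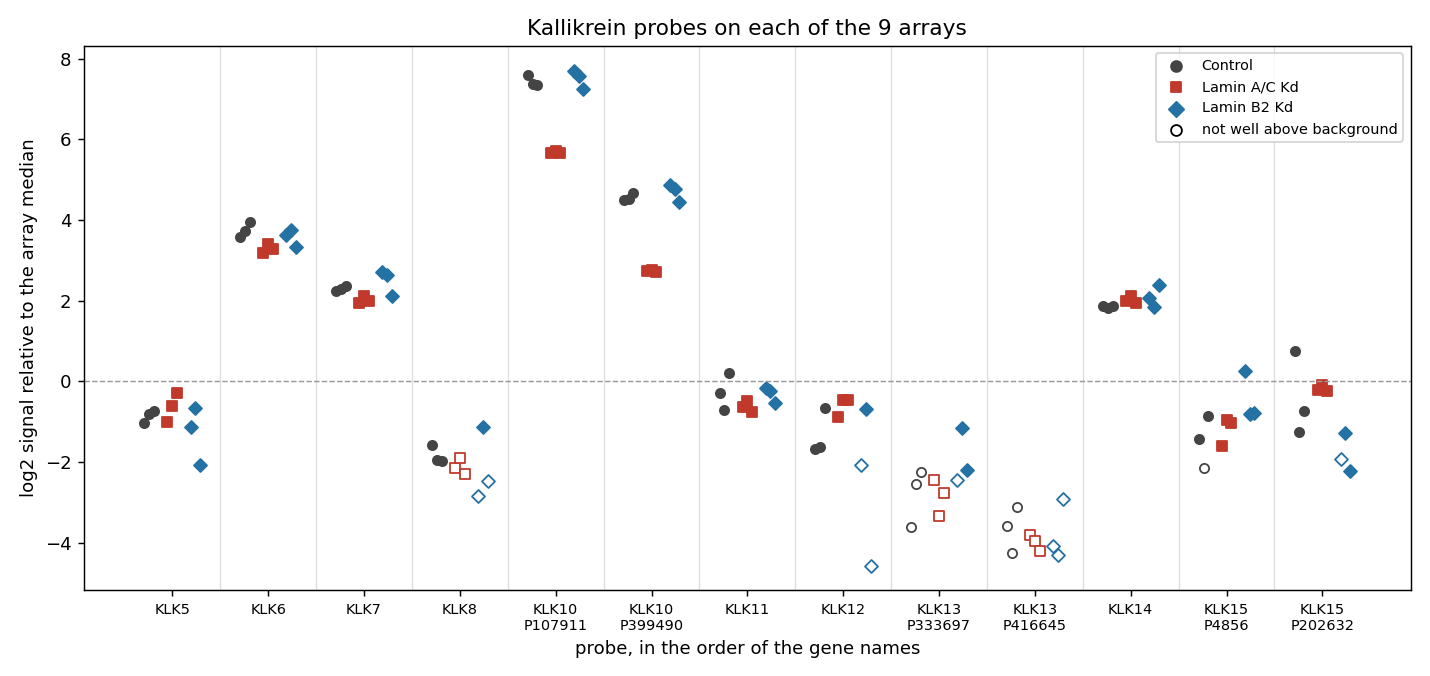
Log2 signal relative to the array median (vertical axis) of the 13 kallikrein probes (horizontal axis, in the order of the gene names) on each of the 9 arrays. Points are single arrays, with symbols and colours for the 3 groups and open symbols where the probe was not well above background. Both KLK10 probes are lower on all 3 Lamin A/C Kd arrays than on the other 6, and heights are not comparable between probes.

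The main change among the kallikreins was in KLK10 upon Lamin A/C depletion. KLK10 encodes a kallikrein with little proteolytic activity that was first described in normal mammary epithelium and is often silenced in breast tumours. Probe P107911 read 7.59, 7.37 and 7.34 in control cells, 5.66, 5.72 and 5.66 in Lamin A/C Kd cells and 7.71, 7.58 and 7.26 in Lamin B2 Kd cells. The 3 Lamin A/C Kd arrays lay close together and below all 6 others. Signal upon Lamin A/C Kd was 29.6% of control (95% interval 23.8% to 36.9%), a log2 difference of -1.75 ± 0.14 (SE, n = 3 and 3; limma adjusted p = 0.000478). Probe P399490 read 4.51, 4.53 and 4.66 in control cells, 2.75, 2.77 and 2.72 in Lamin A/C Kd cells and 4.87, 4.78 and 4.45 in Lamin B2 Kd cells. Again the Lamin A/C Kd arrays did not overlap either other group. This probe retained 28.3% of control signal (95% interval 23.1% to 34.8%), a log2 difference of -1.82 ± 0.13 (limma adjusted p = 0.000340). Of the 33131 probes tested, 66 fell further than P399490 and 76 further than P107911. In a bulk sample, fewer cells making KLK10 and less KLK10 RNA per cell cannot be told apart.

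Probes of 4 kallikreins hold the 6 bases TGGATC and are shown so that these stretches can be compared. Sequences are the deposited 60-base probes, 5′ to 3′, with TGGATC in capitals. The KLK5 and KLK15 probes are shown up to the stop codon TGA in frame with TGG, which begins at base 37 of each.
KLK10 P399490: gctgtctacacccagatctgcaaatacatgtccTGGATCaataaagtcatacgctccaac
KLK8 P369343: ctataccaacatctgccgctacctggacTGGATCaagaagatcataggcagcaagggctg
KLK15 P202632: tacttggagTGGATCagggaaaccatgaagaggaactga
KLK5 P153480: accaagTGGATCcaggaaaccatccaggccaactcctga
TGGATC was read in 4 of the 13 kallikrein probes and in 1.45% of the 50238 probes of the array as written, or 2.65% counting its reverse complement GATCCA, which overlaps it in the KLK5 probe. These shares are a description, from which nothing is read. Aligned on TGGATC without gaps, the 6 pairs of probes were identical at 52.6% (KLK5 and KLK8) to 70.9% (KLK10 and KLK8) of the bases aligned, the latter at 39 of 55 bases. The identities include TGGATC itself, cover only probes that hold it and leave out bases after a stop codon. They are therefore no measure of likeness across the family. No kallikrein probe shared a run of more than 9 bases with a probe of another member gene. Binding of one family member's RNA to another's probe was not tested.

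Apart from KLK10, no member was called upon Lamin A/C Kd. Calls required a change of 2-fold or more and a p under 0.05, thresholds taken from the study, with the p here from limma and not adjusted, and 2.31% of all probes tested met them. Of the 11 kallikrein probes tested, representing 9 genes, 2 were called and both were the KLK10 probes. Both also passed with a Benjamini-Hochberg adjusted p, as did 1.84% of all probes. Without the detection filter, the median difference over the 13 kallikrein probes was -0.29, against 0.01 over all 50238 probes of the array. The former falls on the KLK8 probe, which was well above background on no Lamin A/C Kd array, so it is no measured fold of that gene. Both KLK10 probes count in this median, as does KLK13 P416645 (-0.34), which was above background on no array. The median is therefore not read as a fall of the cluster. The control and Lamin A/C Kd arrays did not overlap for 5 of the 11 probes, 4 of them lower, against 41% of all probes, or 25.8% counting lower ones. All 11 differences kept their sign under the other scalings tried.

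KLK6, a trypsin-like protease known from brain and from colon and ovarian tumours, read 3.57, 3.73 and 3.96 in control cells and 3.18, 3.41 and 3.28 upon Lamin A/C Kd. The groups did not overlap, and the difference of -0.47 ± 0.15 was under 2-fold (limma adjusted p = 0.0977). Its limma adjusted p ran from 0.0296 to 0.311 when single arrays were left out and from 0.0224 to 0.199 under the other alternatives. KLK7, the chymotrypsin-like enzyme that cleaves corneodesmosomes of the skin, read 2.24, 2.30 and 2.38 in control cells and 1.95, 2.11 and 1.99 upon Lamin A/C Kd. Its groups did not overlap either, with a difference of -0.29 ± 0.16 (limma adjusted p = 0.322). KLK14, a trypsin-like activator of protease-activated receptors, went from 1.86, 1.82 and 1.88 to 1.98, 2.12 and 1.95. These 3 arrays lay above the controls by a small margin, and the difference was 0.16 ± 0.15 (limma adjusted p = 0.572). KLK11, a trypsin-like protease of glandular epithelia, read -0.28, -0.70 and 0.22 in control cells and -0.64, -0.49 and -0.77 upon Lamin A/C Kd, with overlapping groups (-0.38 ± 0.22, limma adjusted p = 0.345). Leaving out single arrays moved this difference between -0.60 and -0.14. KLK5, which starts the skin cascade by activating KLK7 and KLK14, read -1.03, -0.80 and -0.74 in control cells and -1.02, -0.60 and -0.28 upon Lamin A/C Kd (0.23 ± 0.33, limma adjusted p = 0.756). The 95% interval of the KLK5 difference ran from 69.8% to 196% of control, so the interval includes a rise of nearly 2-fold. Leaving out single arrays moved the KLK5 difference between 0.05 and 0.42.

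Members nearer background had wider errors still. KLK12, a trypsin-like protease, read -1.67, -1.64 and -0.66 in control cells and -0.89, -0.45 and -0.45 upon Lamin A/C Kd, a difference of 0.73 ± 0.79 (limma adjusted p = 0.657). KLK8, or neuropsin, known for its role at synapses and in skin, was well above background on the 3 control arrays (-1.59, -1.96 and -1.97) and on none of the Lamin A/C Kd arrays, where it averaged -2.13. It passed detection through the control group alone, in which it was high, the groups overlapped, and no fold is given. KLK15 gave differences of 0.28 ± 0.38 and 0.23 ± 0.45 for its 2 probes upon Lamin A/C Kd, given with no p because the control arrays took part in the choice of this gene. P4856 was well above background on 2 of the 3 control arrays and entered through the Lamin A/C Kd group. Both differences turned negative when Control replicate 2 was left out.

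In Lamin B2 Kd cells the KLK10 probes stood at 106% and 110% of control, with log2 differences of 0.08 ± 0.14 and 0.13 ± 0.13 and overlapping groups. The 2 knockdown comparisons share the 3 control arrays. The direct difference between the knockdowns, Lamin A/C Kd minus Lamin B2 Kd, was -1.83 and -1.95 for the 2 probes (-1.96 and -2.08 without Lamin B2 Kd replicate 3), and the 6 arrays did not overlap. It is given with no p, because the Lamin B2 Kd arrays took part in the choice of the genes. The criteria for a call were met between the knockdowns by 4 of 10 kallikrein probes (both KLK10 probes, KLK12 and KLK15 P202632) and by 4.07% of all probes, which for the same reason is a description from which nothing is read. Without Lamin B2 Kd replicate 3 the KLK10 probes differed from control by 0.21 and 0.26 in Lamin B2 Kd cells.

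**Figure D2:**
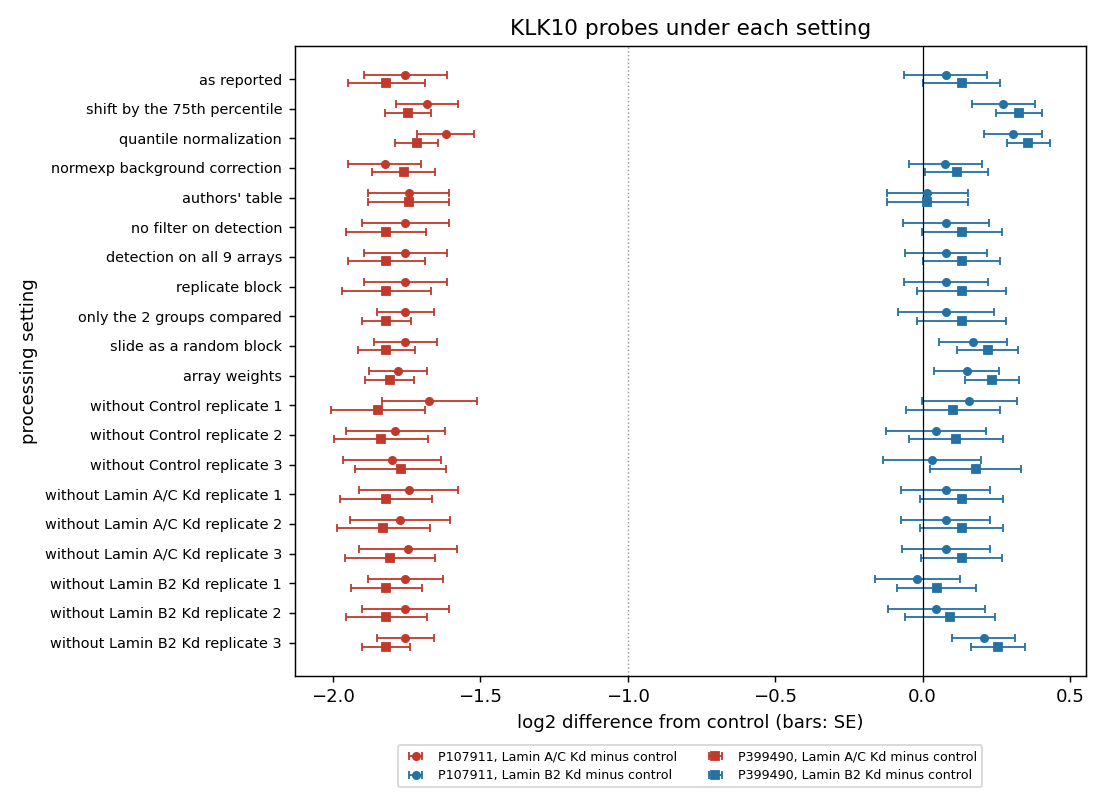
Log2 difference from control (horizontal axis) of the 2 KLK10 probes upon Lamin A/C Kd (red) and Lamin B2 Kd (blue) under each processing setting (vertical axis), with bars for the SE. Circles are probe P107911 and squares P399490. All Lamin A/C Kd estimates lie between -1.85 and -1.62, and the dotted line marks a 2-fold fall.

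KLK15, which activates the precursor of KLK3 (prostate-specific antigen), was the gene for which the cluster was chosen, and its 2 probes went opposite ways upon Lamin B2 Kd. Probe P202632 is shown above. The other lacks TGGATC and is shown in full, in lower case, so that the different stretches measured can be seen.
KLK15 P4856: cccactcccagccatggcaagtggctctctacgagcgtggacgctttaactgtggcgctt
The 2 probes differ in base composition, with 60% G and C in P4856 and 45% in P202632. P4856 read -1.43, -2.15 and -0.85 in control cells, -1.60, -0.96 and -1.03 in Lamin A/C Kd cells and 0.26, -0.80 and -0.78 in Lamin B2 Kd cells. The lowest Lamin B2 Kd array lay only just above the highest control array. The difference from control was 1.04 ± 0.38, just past 2-fold, and the second control array was not well above background. P202632 read 0.76, -1.25 and -0.73 in control cells, -0.20, -0.09 and -0.25 upon Lamin A/C Kd and -1.93, -1.27 and -2.23 upon Lamin B2 Kd. Here the control arrays spanned more than the difference between the groups, and the highest Lamin B2 Kd array lay just below the lowest control array. The difference from control was -1.41 ± 0.45. Lamin B2 Kd replicate 1 was not well above background for this probe.

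Leaving out single arrays moved both probes. Without Control replicate 1 the P202632 difference was -0.82, under 2-fold, and without Control replicate 2 it was -1.83. The P4856 difference was 0.70 without Control replicate 2 and 0.69 without Lamin B2 Kd replicate 1. Without the second-slide array the differences of P4856 and P202632 were 1.21 and -1.19. With background correction by normexp the 2 differences shrank to 0.36 and -0.57, and in the authors' table, which joins both probes in 1 row, KLK15 differed by -0.13. Averaged over its probes KLK15 differed from control by -0.18 ± 0.32.

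Of the 11 kallikrein probes that passed detection upon Lamin B2 Kd, 2 met the criteria for a call, both of KLK15 and 1 in each direction, and 1.97% of all probes did. With an adjusted p in limma in place of the unadjusted p the count fell from these 2 to 0, and the share of all probes to 0.945%. The control and Lamin B2 Kd arrays did not overlap for the same 2 probes, against 31.9% of all probes. P4856 passed detection through the Lamin B2 Kd group and P202632 through the control group, in each case the group in which it was high. For that reason, and since KLK15 in this comparison led to the choice of the genes, nothing is read from these counts. The median difference over the 13 probes was -0.06, against -0.04 over all probes without the detection filter, and 0.06 against 0.01 without replicate 3. A shift by the 75th percentile in place of the median moved the median of all probes tested in Lamin B2 Kd from -0.14 to 0.06, and the share of calls that were lower from 60.4% to 22.9%. For Lamin A/C Kd that share was 61.6%, or 50.7% with the 75th percentile and 80.4% with normexp. KLK6 (-0.18 ± 0.15) and KLK11 (-0.06 ± 0.22) changed sign in Lamin B2 Kd under other scalings, and KLK7 (0.19 ± 0.16) and KLK14 (0.25 ± 0.15) did not. Without replicate 3 the differences of KLK6, KLK11, KLK7 and KLK14 were -0.06, 0.06, 0.37 and 0.10.

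KLK12 and KLK5 show the weight of the array on the second slide. KLK12 read -2.08, -0.69 and -4.57 in Lamin B2 Kd cells, the last at the floor of that array, and its difference from control was -1.12 ± 0.80. Without replicate 3 it was -0.06. Replicate 2 was the only Lamin B2 Kd array well above background for KLK12, so no difference is given without it. KLK5 read -1.13, -0.67 and -2.08 and differed by -0.44 ± 0.33, or by -0.04 without replicate 3. KLK8 (-2.85, -1.13 and -2.47) was above background on 1 of the 3 arrays, replicate 2, and differed by -0.31. The difference became -0.15 without replicate 3 and 0.04 without replicate 1, and none is given without replicate 2. KLK12 and KLK8 passed detection here through the control group alone, in which they were high, so their differences are descriptions. KLK13 P333697 was above background on 2 Lamin B2 Kd arrays and on no control array, and read -2.45, -1.16 and -2.19 in Lamin B2 Kd and -3.62, -2.55 and -2.24 in control cells. The groups overlapped, and no fold is given.

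Along the chromosome no gene beside KLK10 was called upon Lamin A/C Kd. KLK9 and KLK11 flank KLK10 in the RefSeq order of genes (GRCh38.p14, used for order only since the array is annotated on hg18). KLK9 differed from control by 0.00 ± 0.15 upon Lamin A/C Kd (limma adjusted p = 0.992) and KLK11 as given above. Of the other kallikrein genes, KLK1, KLK2, KLK3, KLK4, KLK9, the pseudogene KLKP1 and KLKB1 (plasma kallikrein, encoded on another chromosome), 6 were tested and none was called in either knockdown. KLK3 differed by 0.06 ± 0.26 upon Lamin A/C Kd and 0.25 ± 0.26 upon Lamin B2 Kd, and KLK1 (tissue kallikrein, which releases kinins) by -0.27 ± 0.17 and -0.48 ± 0.18, or in the latter by 0.06 and -0.27 without replicate 3. These are the brightest probes, and 3 of the other 4 KLK3 probes were lower than control upon Lamin B2 Kd. Without replicate 3 those 4 differed by 0.06, -0.35, -0.25 and 0.14. KLK4 was above background on 3 arrays and was not tested. Of 18 genes tested on either side of the cluster none was called upon Lamin A/C Kd, where 2.93% of all gene names had a called probe. Upon Lamin B2 Kd 2 of 19 were called, and 2.71% of all gene names were. The 2 were NKG7 (a granule protein of lymphocytes, 1.20 ± 0.37, limma adjusted p = 0.0998) and GPR32 (a receptor for resolvins, 1.06 ± 0.41, given with no p). Both were highest on the second-slide array. Without that array neither met the criteria (0.79 and 0.52), and 1 of 20 did, SIGLEC7 (1.46). With all arrays SIGLEC7 had not passed detection, being well above background on 1 control and 2 Lamin B2 Kd arrays, so that it entered through the group in which it was high. GPR32 was well above background on all 3 Lamin B2 Kd arrays, 2 control arrays and no Lamin A/C Kd array. It entered the test through the group in which it was high, so its call is a description. GPR32 also failed the criteria without Control replicate 1 or Control replicate 3. The median over these neighbours was 0.06 upon Lamin A/C Kd and -0.09 upon Lamin B2 Kd, the latter 0.01 without replicate 3.

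**Figure D3:**
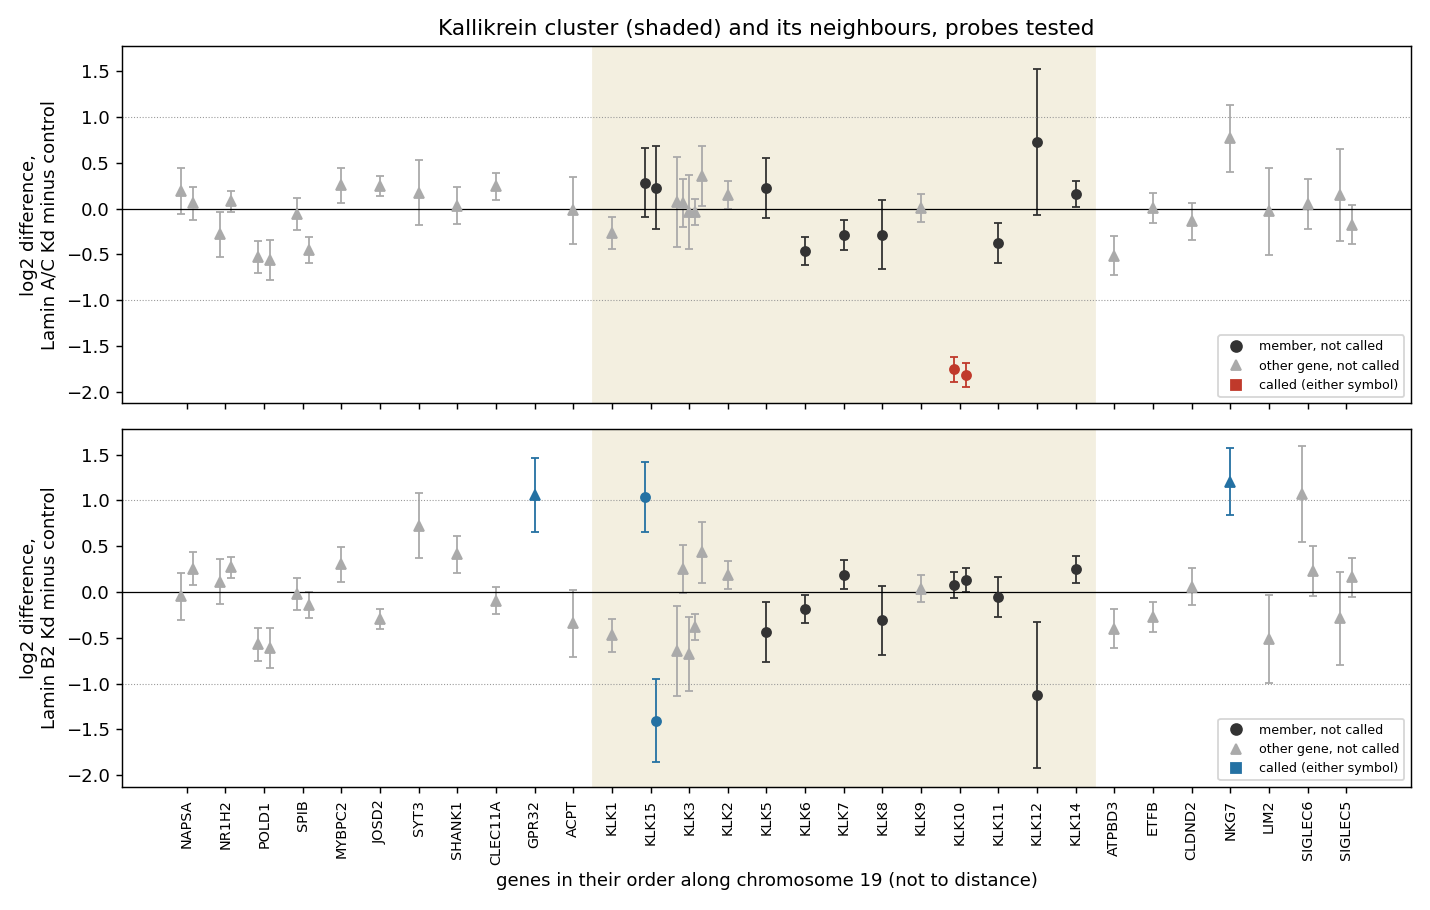
Log2 difference from control (vertical axis, bars for the SE) upon Lamin A/C Kd (upper panel) and Lamin B2 Kd (lower panel) for the probes tested of the kallikrein cluster (shaded) and its neighbours, in their order along chromosome 19. Circles are the described genes and triangles other genes, coloured where called, with dotted lines at 2-fold. The 2 KLK10 probes are the only coloured points of the upper panel.

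Probes annotated to a non-coding cDNA, FLJ22392, fell upon Lamin A/C Kd by nearly as much as KLK10. The array holds 4 probes for it, which the authors' table joins to KLK10 in 1 row, and these were looked at after the KLK10 values were seen. The 4 probes are tiled over 75 bases and share runs of at least 45 bases, so they count as 1 measurement, and the longest run shared with a KLK10 probe was 6 bases. Whether the cDNA is part of a KLK10 transcript was not tested. The first of them read 7.92, 7.68 and 7.89 in control cells, 6.06, 6.25 and 6.09 upon Lamin A/C Kd and 8.01, 7.88 and 7.52 upon Lamin B2 Kd. Their differences from control upon Lamin A/C Kd ran from -1.75 to -1.69.

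Among 30569 probes detected on all 9 arrays, the 5 gene names whose pattern was most like KLK10 P107911 were FLJ22392 (Pearson r = 0.995 over 9 arrays), CSF2, PHLDA2, KIAA1946 and KRT80 (r = 0.991 to 0.992). The 9 arrays fall into the same 3 groups for every gene, and differences between groups enter r. CSF2, the cytokine GM-CSF, read 1.29, 1.24 and 1.13 in control cells, -0.22, -0.03 and -0.03 upon Lamin A/C Kd and 1.59, 1.35 and 1.25 upon Lamin B2 Kd. KRT80, an epithelial keratin, read 5.09, 4.95 and 5.06, then 3.87, 3.88 and 4.004, then 5.15, 5.07 and 4.76 in the same order of groups. PHLDA2 and KIAA1946 were lower upon Lamin A/C Kd by log2 differences of -1.03 and -0.90. Within the kallikreins, the probes of KLK10 correlated at r = 0.993 over the 9 arrays, and KLK7, KLK6, KLK11, KLK14 and KLK5 with KLK10 P399490 at r = 0.798, 0.762, 0.613, -0.13 and -0.38, given as a description over the same arrays.

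The genes that meet kallikreins in the pathway are given by list, beside the 2.93% of all gene names called upon Lamin A/C Kd and the 2.71% upon Lamin B2 Kd. The inhibitor list held 20 genes, among them SPINK5 (the skin inhibitor LEKTI), other SPINK and serpin genes, SPINT1 and SPINT2. Of 14 tested upon Lamin A/C Kd 1 (7.14%) fell and none rose, with a median of -0.15. SERPINC1 (antithrombin) read -0.90, -0.89 and -0.82 in control cells and was not well above background on any Lamin A/C Kd array (mean -2.84). No fold and no p is given for it. SERPINC1 passed the detection filter through the control group alone, in which it was high, so the count of 1 in this list is a description. SPINT2, PEBP1, SLPI and SPINT1 differed from control by 0.09, 0.27, -0.11 and 0.02 upon Lamin A/C Kd and by -0.30, -0.20, -0.01 and 0.08 upon Lamin B2 Kd. The latter were -0.22, -0.10, 0.06 and 0.24 without replicate 3. No inhibitor was called upon Lamin B2 Kd (median 0.02, or -0.11 without replicate 3).

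The list of receptors and substrates held 18 genes, including F2RL1 (protease-activated receptor 2), the desmosomal cadherins, urokinase and its receptor. Of 12 tested upon Lamin A/C Kd 1 (8.33%) fell and none rose (median 0.05). FN1, the matrix protein fibronectin, fell from -0.23, -0.18 and 0.19 to -1.26, -1.31 and -0.995 (difference -1.12 ± 0.15, limma adjusted p = 0.00428) and read 0.59, 0.53 and 0.37 upon Lamin B2 Kd. Without Control replicate 3 its fall was just under 2-fold (-0.98). Of its other 2 probes 1 was detected on 4 arrays and 1 on none. CDH1, PLAU, PLAUR and SCNN1A differed by -0.14, 0.17, -0.38 and 0.07 upon Lamin A/C Kd. No gene of this list was called upon Lamin B2 Kd (median -0.13, or 0.08 without replicate 3). Without replicate 3 a dim probe of PLG (plasminogen) met the criteria, but neither remaining Lamin B2 Kd array was well above background for it. This probe entered through the control group, in which it was high, and no fold is given. The other 2 PLG probes tested did not meet the criteria (-0.21 and 0.21).

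None of 11 other epithelial serine proteases tested was called in either knockdown, with medians of -0.09 and 0.09. ST14 (matriptase) differed by -0.75 ± 0.22 upon Lamin A/C Kd (limma adjusted p = 0.0687) and PRSS22 (tryptase epsilon) by -0.63 ± 0.13 (limma adjusted p = 0.0212), under 2-fold. PRSS8 (prostasin) went the other way, by 0.56 ± 0.13 (limma adjusted p = 0.0285). TMPRSS4, a membrane-bound serine protease, differed by -0.52 ± 0.13 (limma adjusted p = 0.0404). Both were under 2-fold and were named after their values were seen. PRSS2 and PRSS3, trypsinogens, differed by 0.18 and 0.20. Steroid and vitamin D receptors are the class of factors by which several kallikrein genes are known to be regulated. Of 9 listed, 5 were tested and none was called. The medians were 0.20 upon Lamin A/C Kd and -0.20 upon Lamin B2 Kd, the latter -0.06 without replicate 3. VDR differed by -0.21 in both knockdowns, or by -0.06 upon Lamin B2 Kd without replicate 3. RARG differed by -0.58 ± 0.12 upon Lamin A/C Kd (limma adjusted p = 0.0171), and its second probe by -0.27 ± 0.15. The 2 probes of RXRA differed by -0.95 ± 0.22 and -0.97 ± 0.15 upon Lamin B2 Kd (limma adjusted p = 0.0522 and 0.0171), just under 2-fold, or by -0.64 and -0.88 without replicate 3.

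**Figure D4:**
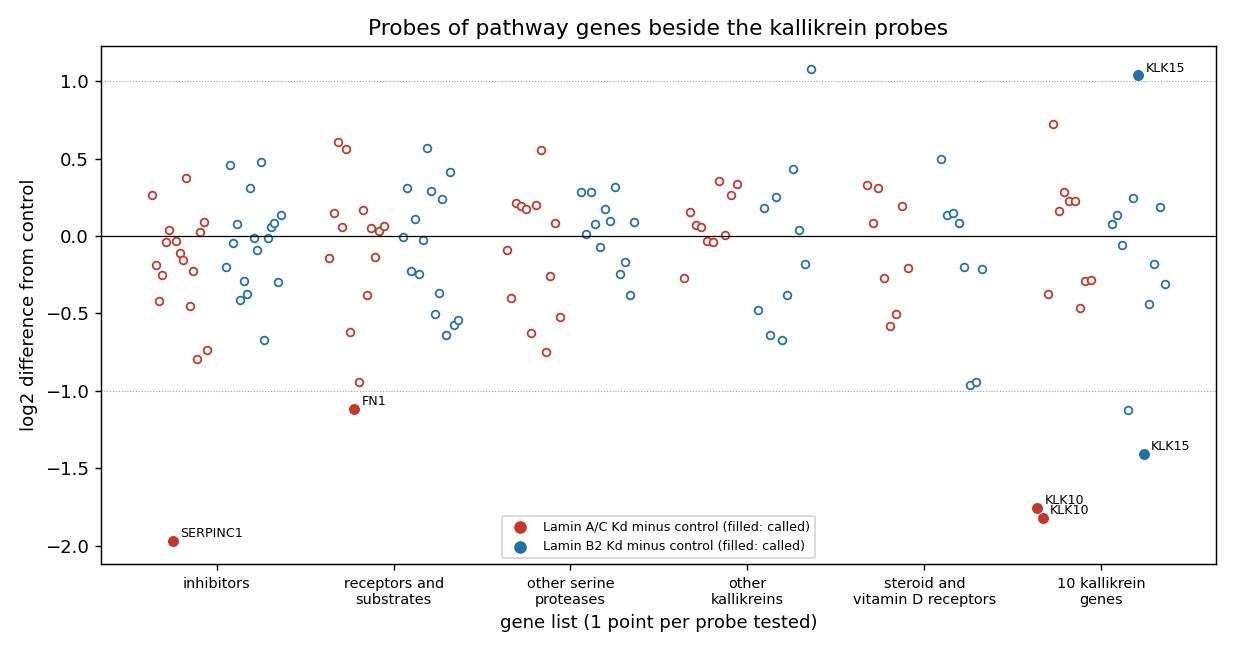
Log2 difference from control (vertical axis) of each probe tested for 5 lists of pathway genes and for the 10 kallikrein genes (horizontal axis), upon Lamin A/C Kd (red) and Lamin B2 Kd (blue). Filled points were called and carry the gene name, and dotted lines mark 2-fold. In the 5 lists the only filled points are SERPINC1 and FN1, both lower upon Lamin A/C Kd.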

How the data were processed

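RNA from 9 DLD1 samples was hybridised in 1 colour to Agilent 60-mer arrays (8 arrays on 1 slide, 1 on another). The deposited scanner files hold intensity values per spot, which the authors obtained with Agilent Feature Extraction (10.5 per the submitters' processing notes, 10.7.3.1 per the file headers). These are background-subtracted and spatially detrended, with probes annotated on hg18. A series table deposited by the authors holds log2 values shifted by the 50th percentile and centred on each row's median, and 11504 of its 50238 rows join several probes. Its 3 Lamin B2 Kd columns were numbered differently from the sample titles, so they were used by group only.

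From the scanner intensity, log2 values minus the 50th percentile of each array were computed, averaged over the spots of a probe. All 9 arrays were fitted with limma 3.58.1 in R 4.3.3 without a block. Tests were limited to probes that the scanner software placed well above background throughout either group of a comparison (3 of 3 arrays). A call required a 2-fold difference and an unadjusted p under 0.05, with Benjamini-Hochberg adjustment over all probes tested. In tests on simulated data, 97% of 200 probes changed by 1.5 (log2) were recovered when comparing either knockdown with control (Lamin A/C Kd first), along with 47 unchanged probes in the first and 74 in the second. The simulated spread came from deviations from group means, which understate it, with the arrays shuffled over the groups. These figures may therefore be too favourable, and smaller changes were not simulated. Groups came from the sample labels, and same-numbered replicates were not paired.

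The members and all gene lists were chosen with earlier results of these data known, so counts over them are descriptions. Named genes were all members, the lamins, list genes called in either knockdown, up to 4 of the brightest in each list and the 5 gene names most like KLK10, with those said in the text to be named after their values were seen. Genes missing from the array were left out. Alternatives covered scaling, background correction, the authors' table, detection, blocks, array weights, the call criteria, averaging of probes and leaving out each array.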

Additional observations from a re-analysis of the deposited data

How the results depend on the processing

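The fall of both KLK10 probes upon Lamin A/C Kd was called under all 19 alternatives that gave them a value (log2 difference -1.85 to -1.62, adjusted p at most 0.00503), and LMNA and LMNB2 kept their calls under the 19 run for them. The count of kallikrein probes called upon Lamin A/C Kd was 2, and 1 in the authors' table and with probes of a gene averaged, where KLK10 is a single row by construction. It was 2 whichever array was left out. Upon Lamin B2 Kd the count of 2 became 1 with quantile normalization and 0 with normexp, in the authors' table, with detection required on all 9 arrays, with adjusted p and with probes averaged, and ranged from 1 to 3 over the arrays left out. The count of 4 between the knockdowns, a description like the one before it, became 2 with normexp, in the authors' table, with detection on all 9 arrays and with probes averaged, and ranged from 3 to 4 over the arrays left out. KLK15 P4856 upon Lamin B2 Kd reversed to -0.13 in the authors' table. Upon Lamin A/C Kd its differences ran from -0.055 to 0.59 over the arrays left out, and those of P202632 from -0.19 to 0.81, both negative without Control replicate 2. Leaving out arrays for named genes outside the cluster was chosen after seeing the data, and SIGLEC7, PLG and DCN were named after their values were seen. Where the construction does not show it, the cause was not tested.

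With the replicate number of the sample titles as a block the counts stayed at 2, 2 and 4. Upon Lamin A/C Kd, 783 in place of 765 probes of the array were called. Arrays with the same number in the titles did not deviate together (r of -0.01 to 0.04 for Lamin A/C Kd and -0.07 to 0.00 for Lamin B2 Kd). In the authors' table the Lamin B2 Kd columns numbered 1, 2 and 3 match replicates 3, 1 and 2 by their values. Set against Control replicates 1, 2 and 3 by that numbering, these arrays gave r = 0.085, 0.027 and 0.112. A fit with that numbering as a block was not run, and the numbers were not treated as pairs.

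Over the whole array, calls upon Lamin A/C Kd went from 765 to 327 with normexp, 402 rows in the authors' table, 472 genes when averaged and 3240 at 1.5-fold. Upon Lamin B2 Kd they went from 662 to 161 with normexp, 401 rows in the table, 424 genes when averaged, 414 with detection on all arrays, 424 with the slide as a random block, 388 with array weights, 317 with adjusted p, 1525 without the detection filter, 2964 at 1.5-fold, and to 1413 or 1492 when replicate 1 or replicate 2 of Lamin B2 Kd was left out. Between the knockdowns they went from 1347 to 393, 778 and 840 for the first 3 of these, and to 2133 without the filter, 4803 at 1.5-fold, and 2201 and 2066 without the same 2 arrays. KLK8, KLK12, KLK13 and KLK15 were not well above background on all 9 arrays, so some of their readings lie at background.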
